A study of Mus musculus with 12 samples.

Results

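Macrophages were followed in mouse soleus through 10 genes that mark them: Adgre1, Csf1r, Cd14, Cd163, Mrc1, Cd68, C1qa, C1qb, C1qc and Lyz2. The 10 were matched by symbol, and all 10 were found among the 28997 genes of the tables. Each had a total of at least 100 normalised reads over the 12 libraries, the minimum used below, which 15494 genes reached. The soleus, a hind limb muscle rich in slow fibres, was sequenced as stranded mRNA in 4 groups of 3 mice. By the labels, each mouse was either wild type (Cdh5cre-WT) or a conditional Nox1 knockout (Cdh5Cre-NOX1CKO) with a Cre driven by Cdh5, a gene of endothelial cells. The name Cdh5cre-WT does not settle whether the wild-type mice also carried the Cre. Mice of each genotype were on a chow diet or a high fat diet for 8 weeks. Ages, and whether the Cre is inducible, are not given in the sources used here. As background, a Cdh5 Cre that is active from the embryo also recombines in part of the blood lineage, because blood stem cells arise from endothelium. The authors' tables compare groups coded G1 to G4, and the labels do not say which code is which genotype or diet. All values below are therefore given by code, and none is assigned to the knockout or to the diet.

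Macrophages live in muscle between the fibres and around vessels, clear dead cells and debris, and take part in repair after injury. Resident cells are maintained by signals through the receptor encoded by Csf1r, and in many tissues they carry the scavenger receptors Cd163 and Mrc1. They are also the main source of C1q, the recognition part of the classical complement pathway. The transcription factor PU.1 is needed to form these cells and binds purine-rich sites with a GAGGAA core.

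Promoter sequences are shown because they are what the markers could share beyond their cell type. RefSeq sequences of GRCm38.p6 were found for 6 of the 10 markers (Cd163, Mrc1, Cd68, C1qb, C1qc and Lyz2), and 4 of these are printed. Each window holds the bases before the start site that lie outside the annotated gene, read 5′ to 3′ on the gene's strand. Capitals mark GAGGAA (or TTCCTC, its reverse complement) and TGANTCA, a site that AP-1 factors can bind, both searched on both strands.
C1qb (chr4:136886201-136886450, minus strand): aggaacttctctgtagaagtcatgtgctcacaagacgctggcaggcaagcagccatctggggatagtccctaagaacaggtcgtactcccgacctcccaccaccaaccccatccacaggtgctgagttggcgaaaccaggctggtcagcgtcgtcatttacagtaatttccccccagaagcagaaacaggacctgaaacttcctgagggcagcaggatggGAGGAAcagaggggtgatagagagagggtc
C1qc (chr4:136893066-136893164, minus strand): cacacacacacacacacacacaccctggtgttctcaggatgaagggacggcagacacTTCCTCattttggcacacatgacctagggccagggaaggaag
Cd68 (chr11:69666171-69666420, minus strand): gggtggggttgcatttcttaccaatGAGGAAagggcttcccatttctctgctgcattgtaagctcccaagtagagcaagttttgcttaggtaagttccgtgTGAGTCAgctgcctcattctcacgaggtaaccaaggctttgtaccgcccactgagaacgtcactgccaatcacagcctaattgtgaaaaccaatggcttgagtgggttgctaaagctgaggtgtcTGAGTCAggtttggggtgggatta
Mrc1 (chr2:14229164-14229391, plus strand): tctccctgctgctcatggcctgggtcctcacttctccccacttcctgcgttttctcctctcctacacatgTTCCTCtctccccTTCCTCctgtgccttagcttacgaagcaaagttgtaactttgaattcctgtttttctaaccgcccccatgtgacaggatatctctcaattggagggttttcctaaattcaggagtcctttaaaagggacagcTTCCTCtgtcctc
The letters GAGGAA occurred once each before C1qb, C1qc and Cd68 and at 3 places before Mrc1. They did not occur in the 201 bases before Lyz2 or the 235 before Cd163. TGANTCA was found at 2 places before Cd68 and in none of the other 5 windows. In all 32851 promoters of the RefSeq table, GAGGAA was present in 23.3% of 250-base windows and in 9.9% of windows as short as the 99 bases of C1qc, and TGANTCA in 6.7% of 250-base windows. These are matches of letters and not measured binding sites.

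The markers were present at low levels, as is usual for a minor cell type in whole muscle. Together they made up 79.9 CPM (the share of all normalised reads, scaled to 1e6), against 78410.5 CPM for 8 genes of the muscle fibre. Per kilobase of exon, Lyz2 had the highest level with 17.6 CPM per kilobase (RPKM), above 88.3% of genes at or above that minimum total. It was followed by C1qa with 8.68, C1qb with 6.94 and C1qc with 5.02 RPKM. Cd68, Csf1r, Mrc1 and Cd163 lay between 2.05 and 1.09 RPKM, Cd14 had 0.704 and Adgre1 had the lowest level with 0.528 RPKM, a span of 33.3-fold. Adgre1 and Cd163, both used to identify these cells, were above 19.2% and 32.3% of the same genes.

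No marker passed an adjusted p of 0.05 in any of the 4 comparisons of the authors' deposited tables. The share of all tested genes that passed was 0.00645% for G2 versus G1, 0.21% for G3 versus G1, 1.38% for G4 versus G2 and 0.0394% for G4 versus G3. At an unadjusted p under 0.05, 1 of the 40 values passed, that of Csf1r in G4 versus G3, where 4.83% of genes at or above the minimum total did so in the authors' deposited table. For the other comparisons that share was 2.35% for G2 versus G1, 5.63% for G3 versus G1 and 9.06% for G4 versus G2, with 0 of 10 markers in each. All 10 log2 values were below 0 in the authors' deposited table for G2 versus G1, with a marker median of -0.39. That table lists no rises, and the values of all genes given here for G2 versus G1 include rises filled in from the other comparisons. With these, 50.3% of all genes were below 0 and their median was -0.00. In the authors' deposited table for G4 versus G3, 8 of 10 were below 0 with a median of -0.28, beside 49.1% of all genes. From the authors' deposited tables, medians were -0.06 for G3 versus G1 and 0.06 for G4 versus G2, with 7 and 5 of 10 values below 0, beside 49.9% of all genes in each. With the 3 C1q chains counted once, through C1qa, the median of G4 versus G2 was -0.11 in place of 0.06, and with the 7 markers that have a total of at least 1000 it was -0.12, so it has no steady sign. The 10 genes are read from the same cells and libraries, so their shared direction is not 10 separate observations. In whole tissue, fewer macrophages and less of these RNAs per macrophage cannot be told apart.

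**Figure D1:**
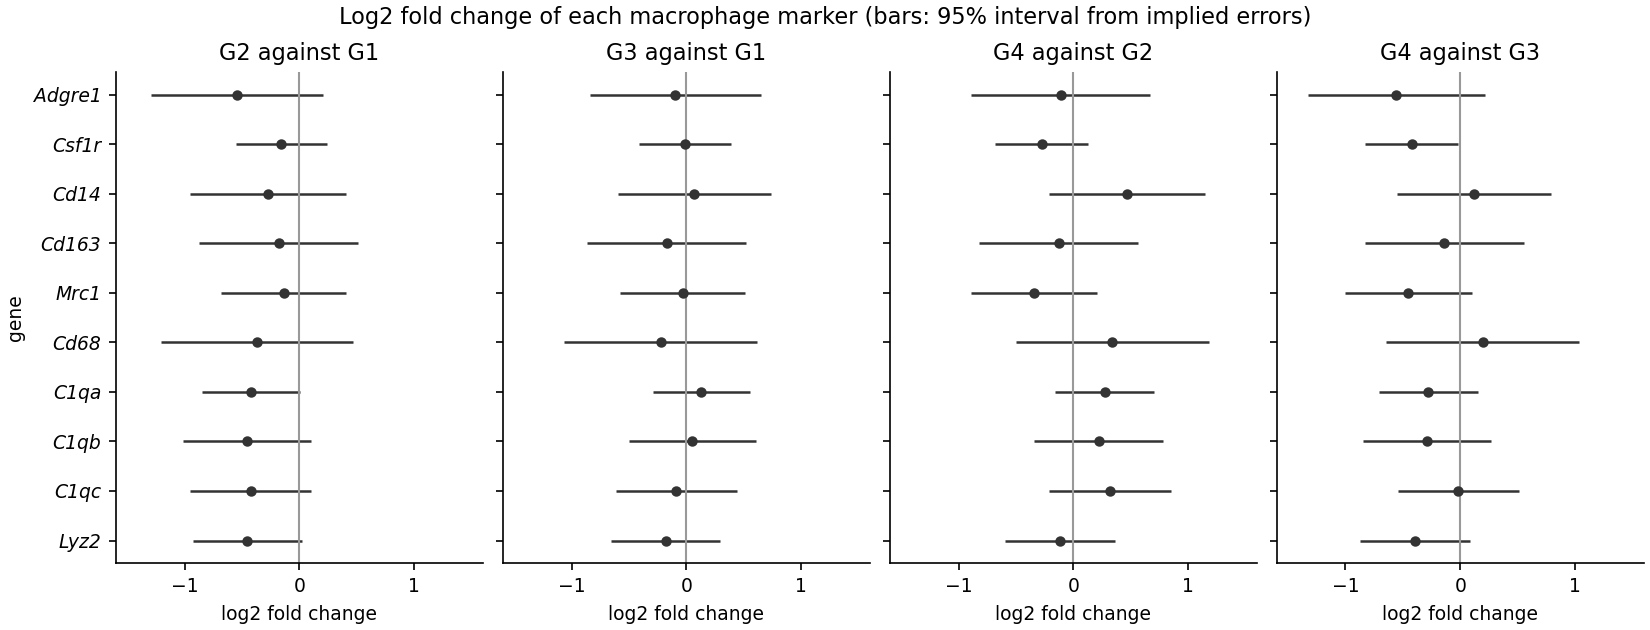
Log2 fold change of each marker (x axis) in the 4 comparisons of the authors' deposited tables, with 95% intervals from the implied standard errors. All 10 points lie left of 0 in G2 versus G1, 8 of 10 do in G4 versus G3, and the interval of Csf1r in G4 versus G3 (-0.83 to -0.02) is the 1 interval that leaves out 0.

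Levels in each group were derived from the summed total of a gene and its fold changes, and their 95% intervals from the standard errors that the deposited p-values imply. The marker sum was 90.8 CPM in G1 and 71.3 in G2, against 86.6 in G3 and 71.0 in G4. G1 was the highest group for 7 markers, G3 for 2 and G4 for 1, while G2 was lowest for 5 and G4 for the other 5. When the groups of each marker were put in order, the 95% interval of none of the 30 steps between neighbours left out 0. The largest step was 1.34 standard errors, from G2 down to G4 for Csf1r. Sorting makes neighbours the closest groups, so these steps say little about groups further apart. Of all 60 pairs of groups over the markers, 4 had an unadjusted p under 0.05 and none was called. Over all genes, 2.35% to 9.06% had such a p in the single pairs of groups. The spread between mice that the errors imply, as a coefficient of variation, ran from 16.3% for Csf1r to 34.1% for Cd68, against a median of 13.2% over all genes with a total of at least 100.

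**Figure D2:**
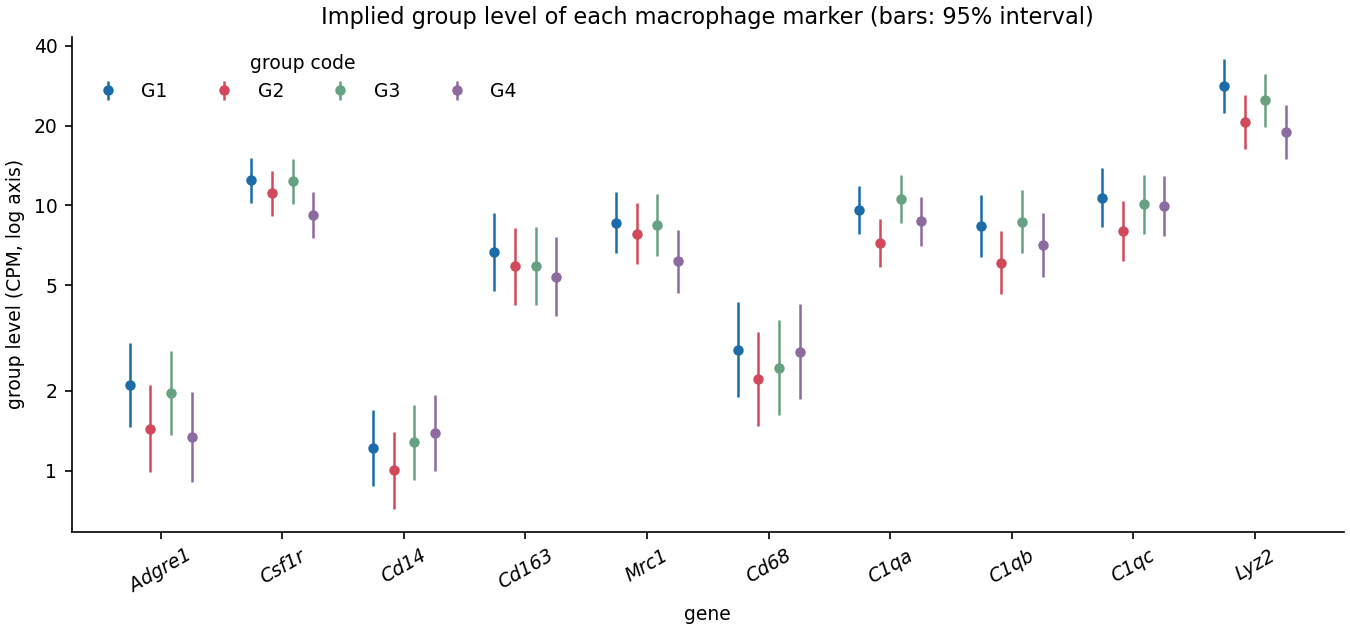
Implied level of each marker in the 4 groups, in CPM on a log axis, with points for group levels and bars for 95% intervals. Intervals of neighbouring groups overlap for every marker, and Lyz2 is the most abundant marker with 19.0 to 28.2 CPM.

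Among the receptors, Csf1r had the smallest error. The gene (chromosome 18, 61100598 to 61132149, GRCm38) encodes the receptor for the growth factors CSF1 and IL-34, on which most tissue macrophages depend. Its level was 12.4 CPM (95% interval 10.2 to 15.1) in G1 and 11.1 (9.15 to 13.5) in G2, against 12.3 (10.1 to 15) in G3 and 9.18 (7.51 to 11.2) in G4, so that 3 groups lay close together and G4 lay below them. The log2 value of G4 versus G3 was -0.42 with an implied standard error of 0.21 and a p of 0.0393 before adjustment in the authors' deposited table, and the adjusted p there was 0.9997. In the other comparisons Csf1r had -0.16, -0.01 and -0.28 for G2 versus G1, G3 versus G1 and G4 versus G2 in the authors' deposited tables. Csf1r shares exon sequence with Hmgxb3 on the opposite strand, which was at 22.6 CPM with log2 values from -0.00 to 0.07 in the 4 comparisons, and the sources used here do not say whether reads were counted by strand. Its pseudogene Csf1r-ps had a total of 4.57 reads against 3365 for Csf1r.

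Adgre1 (chromosome 17, 57358691 to 57483527) encodes F4/80, the surface antigen by which mouse macrophages are most often identified. Its level was 2.1 CPM (1.46 to 3.02) in G1 and 1.44 (0.991 to 2.09) in G2, against 1.97 (1.36 to 2.83) in G3 and 1.34 (0.904 to 1.97) in G4. G1 was 1.46-fold above G2 and G3 was 1.47-fold above G4, although all 4 intervals overlapped. Its log2 value was -0.54 for G2 versus G1 (p = 0.156 before adjustment) and -0.56 for G4 versus G3 (p = 0.157) in the authors' deposited tables. For G3 versus G1 and G4 versus G2 it was -0.10 and -0.11 in the authors' deposited tables. Cd14 (chromosome 18, 36725067 to 36726798) encodes the co-receptor that passes bacterial lipopolysaccharide to TLR4, and unlike the other receptors it was highest in G4. It had 1.22 CPM (0.873 to 1.69) in G1 and 1.0 (0.716 to 1.40) in G2, against 1.28 (0.920 to 1.77) in G3 and 1.38 (0.994 to 1.93) in G4. Its largest log2 value, 0.47 for G4 versus G2 with an implied standard error of 0.35, had a p of 0.179 before adjustment in the authors' deposited table.

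None of the scavenger receptors was called, and their log2 values ran from -0.45 (Mrc1, G4 versus G3) to 0.34 (Cd68, G4 versus G2) in the authors' deposited tables. Mrc1 (chromosome 2, 14229392 to 14332057) encodes the mannose receptor CD206. It had 8.61 CPM (6.60 to 11.2) in G1 and 7.82 (5.99 to 10.2) in G2. In G3 it had 8.43 (6.45 to 11) and in G4 6.16 (4.69 to 8.10), an order shared with Csf1r, Adgre1, Cd163 and Lyz2. Its log2 value was -0.45 for G4 versus G3 (p = 0.108 before adjustment) and -0.34 for G4 versus G2 (p = 0.220) in the authors' deposited tables. Cd163 (chromosome 6, 124304656 to 124330527), the receptor for haptoglobin-bound haemoglobin, had the smallest ratio of highest to lowest group (1.24), with 6.68 CPM (4.76 to 9.36) in G1 and 5.89 (4.2 to 8.26) in G2, against 5.93 (4.22 to 8.33) in G3 and 5.39 (3.83 to 7.60) in G4. Its 4 log2 values lay between -0.18 and -0.13 in the authors' deposited tables. Cd68 (chromosome 11, 69664213 to 69666153), a glycoprotein of phagocyte lysosomes, had 2.86 CPM (1.9 to 4.31) in G1 and 2.21 (1.47 to 3.35) in G2, against 2.45 (1.62 to 3.70) in G3 and 2.81 (1.86 to 4.24) in G4. Its log2 value of -0.37 for G2 versus G1 and 0.34 for G4 versus G2 in the authors' deposited tables each had an implied standard error of 0.43, the largest of the 10 markers.

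The 3 chains of C1q had log2 values of the same sign in 3 of the 4 deposited comparisons and differed in sign in G3 versus G1. C1qb, C1qc and C1qa lie next to each other on the minus strand of chromosome 4 (136880129 to 136886187, 136889804 to 136893065 and 136895917 to 136898803), and their products join into one protein. C1qa had 9.64 CPM (7.83 to 11.9) in G1 and 7.21 (5.84 to 8.90) in G2, against 10.6 (8.58 to 13) in G3 and 8.71 (7.05 to 10.8) in G4. C1qb had 8.36 (6.37 to 11), 6.09 (4.62 to 8.02), 8.67 (6.61 to 11.4) and 7.09 (5.38 to 9.35) CPM in G1, G2, G3 and G4. C1qc had 10.7 (8.28 to 13.9), 7.99 (6.16 to 10.4), 10.1 (7.79 to 13.1) and 9.97 (7.69 to 12.9) CPM in the same order. G2 was the lowest group for all 3 chains. For G2 versus G1 the log2 values were -0.42, -0.46 and -0.42 for C1qa, C1qb and C1qc in the authors' deposited table, with p-values before adjustment of 0.0543, 0.109 and 0.116. For G4 versus G2 they were 0.27, 0.22 and 0.32 in the authors' deposited table, with p-values before adjustment from 0.213 to 0.443, and the comparison shares G2 with the one before. For G3 versus G1 they were 0.13, 0.05 and -0.09 in the authors' deposited table, with p-values before adjustment from 0.546 to 0.851. In G4 versus G3 the chains differed in value, at -0.28 for C1qa, -0.29 for C1qb and -0.02 for C1qc in the authors' deposited table, and differences between chains were not tested. Per kilobase the ratio of C1qa to C1qb stayed between 1.21 and 1.28 in the 4 groups and that of C1qa to C1qc between 1.62 and 1.94. The printed windows before C1qb and C1qc each hold 1 GAGGAA.

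Lyz2 (chromosome 10, 117277331 to 117282321), the lysozyme gene of macrophages and neutrophils, was the most abundant marker. It had 28.2 CPM (22.3 to 35.6) in G1 and 20.6 (16.3 to 26.0) in G2, against 24.9 (19.7 to 31.4) in G3 and 19.0 (15 to 24.0) in G4. As with all other markers except Cd14 and Cd68, the 2 lower groups were G2 and G4. For G2 versus G1 the log2 value was -0.45 (p = 0.0616 before adjustment) and for G4 versus G3 -0.39 (p = 0.109) in the authors' deposited tables. Reads may be split with the near-identical gene Lyz1, which had a total of 373 against 6921 for Lyz2 and, from the authors' deposited tables, log2 values of -0.25, -0.95, -0.85 and -0.14 for G2 versus G1, G3 versus G1, G4 versus G2 and G4 versus G3.

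The errors bound how large a change could have been. The 95% intervals lay within 2-fold in both directions for 7 of 10 markers in G2 versus G1, 9 in G3 versus G1, 8 in G4 versus G2 and 7 in G4 versus G3. To be called in G4 versus G2, the comparison with the most calls, a marker would have needed a rise of at least 1.62-fold (Csf1r) to 2.75-fold (Cd68). In G2 versus G1, where all 10 markers were lower, it would have needed a fall of at least 1.92-fold (Csf1r) to 3.96-fold (Cd68). Smaller changes would not have been called with 3 mice a group.

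**Figure D3:**
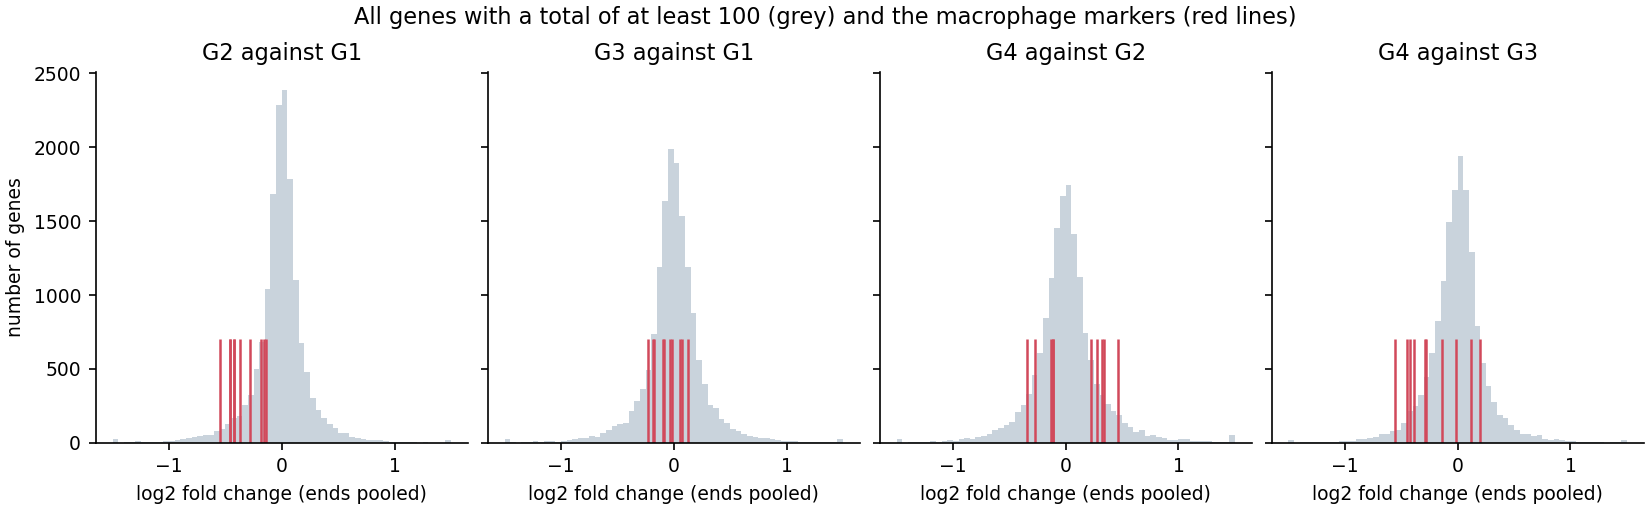
Histograms of the log2 fold change over genes with a total of at least 100 (grey) in the 4 comparisons, with 1 red line for each marker (values beyond 1.5 are pooled at the ends). The marker lines lie on the lower side in G2 versus G1, with a median of -0.39, and around 0 in G3 versus G1, with a median of -0.06.

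The comparisons G2 versus G1 and G4 versus G3 share no group and were averaged, a choice made after their lower marker values were seen, so the average restates those values and is no further observation. In this average, computed from the deposited values over all 12 libraries, the 10 values were below 0, beside 50.3% of all genes, with a median of -0.29. Lyz2 had -0.42 (95% interval -0.76 to -0.09), C1qa -0.35 (-0.65 to -0.05), Csf1r -0.29 (-0.57 to -0.01) and Adgre1 -0.55 (-1.09 to -0.01). Those were 4 of 10 markers at an unadjusted p under 0.05 where 3.12% of all genes had one, and none passed after Benjamini-Hochberg adjustment (lowest adjusted p = 0.9995), where 0.0452% of all genes passed. In the average of G3 versus G1 and G4 versus G2, 5 markers were above 0 and 5 below (50.8% of all genes were below), the median was -0.02 and no p before adjustment was under 0.05, beside 9.74% of all genes at that threshold and 1.65% after adjustment. Values there ran from -0.19 for Mrc1 to 0.27 for Cd14, with the 3 C1q chains at 0.20, 0.14 and 0.12. The interaction, which asks whether G4 versus G2 differs from G3 versus G1, was called for no marker (lowest p before adjustment 0.286, for C1qc, and all adjusted p = 0.9997), where 0.00645% of all genes were called and 4.12% had an unadjusted p under 0.05. Of its estimates 3 of 10 were below 0, as were 48.5% of all genes, and they were wide, from -0.31 for Mrc1 to 0.57 for Cd68 with standard errors of 0.29 to 0.61.

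For 2 further pairs of groups the authors' tables give no comparison, and values were derived. G3 was above G2 for all 10 markers (50.3% of all genes were below), with a median log2 of 0.31, and C1qa had the smallest p, with 0.55 (95% interval 0.12 to 0.98, adjusted p = 0.360). Among all genes 0.988% were called in this pair and 7.44% had an unadjusted p under 0.05, against 1 of 10 markers. G4 was below G1 for 9 of 10 markers, beside 50.1% of all genes, the exception being Cd14 with 0.19, and the median was -0.27. Lyz2 had -0.57 (95% interval -1.05 to -0.09) and Csf1r -0.44 (-0.84 to -0.03), the 2 of 10 markers with an unadjusted p under 0.05, again with no call (lowest adjusted p = 0.726), where 0.323% of all genes were called and 5.32% had an unadjusted p under 0.05. These pairs share groups with the deposited comparisons.

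Other macrophage and leukocyte genes were described in the same way. Of 16 further resident macrophage genes with a total of at least 100 (18 listed), 15 were below 0 in G2 versus G1 with a median of -0.24, 10 of 16 in G3 versus G1 (-0.16), 7 of 16 in G4 versus G2 (0.01) and 11 of 16 in G4 versus G3 (-0.12), with no call. The summed level of all 18 was 262 CPM in G1 and 224 in G2, but 231 in G3 and 248.9 in G4, so in G4 it was above G3, unlike the sum of the markers. Siglec1, a sialic acid receptor that interferon also induces, had -1.40 with an implied standard error of 0.52 in G2 versus G1 and 1.46 with 0.52 in G4 versus G2 in the authors' deposited tables (adjusted p = 1 and 0.178). Gas6, a bridging ligand for the uptake of dead cells, had -0.23 with 0.07 in G3 versus G1 in the authors' deposited table (adjusted p = 0.419). Of 23 general phagocyte and leukocyte genes (26 listed), 22 were below 0 in G2 versus G1 with a median of -0.32, 8 of 23 in G3 versus G1 (0.07), 6 of 23 in G4 versus G2 (0.28) and 16 of 23 in G4 versus G3 (-0.14), with no call. Cyth4 had -0.55 in G2 versus G1 and Lcp1, an actin-bundling protein of leukocytes, -0.56 in G4 versus G3 in the authors' deposited tables, with p-values before adjustment of 0.0690 and 0.0675.

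Inflammatory genes were mostly too low to read. Of 19 monocyte and inflammatory genes, 12 had a total under 100, and the 19 together made up 13.2 CPM. The 7 that remained had medians of -0.42, -0.15, 0.17 and -0.08 in G2 versus G1, G3 versus G1, G4 versus G2 and G4 versus G3, with no call. These medians depend on the genes admitted: with a total of at least 10 they were -0.12, 0.16, 0.24 and -0.19. Only Nos2 reached 1000, and its values were 0.02, 0.12, 0.02 and -0.08. Ly6c2, a marker of classical monocytes, had a log2 of 1.0 with an implied standard error of 0.62 for G3 versus G1, and the costimulator Cd86 -0.71 with 0.53 for G2 versus G1, in the authors' deposited tables. For 8 lipid-associated macrophage genes the medians were -0.14, 0.09, 0.33 and 0.07 in the same order, with Lgals3 at 0.59 and the tetraspanin Cd9 at 0.28 for G4 versus G2 in the authors' deposited table (with adjusted p of 0.496 and 0.411).

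**Figure D4:**
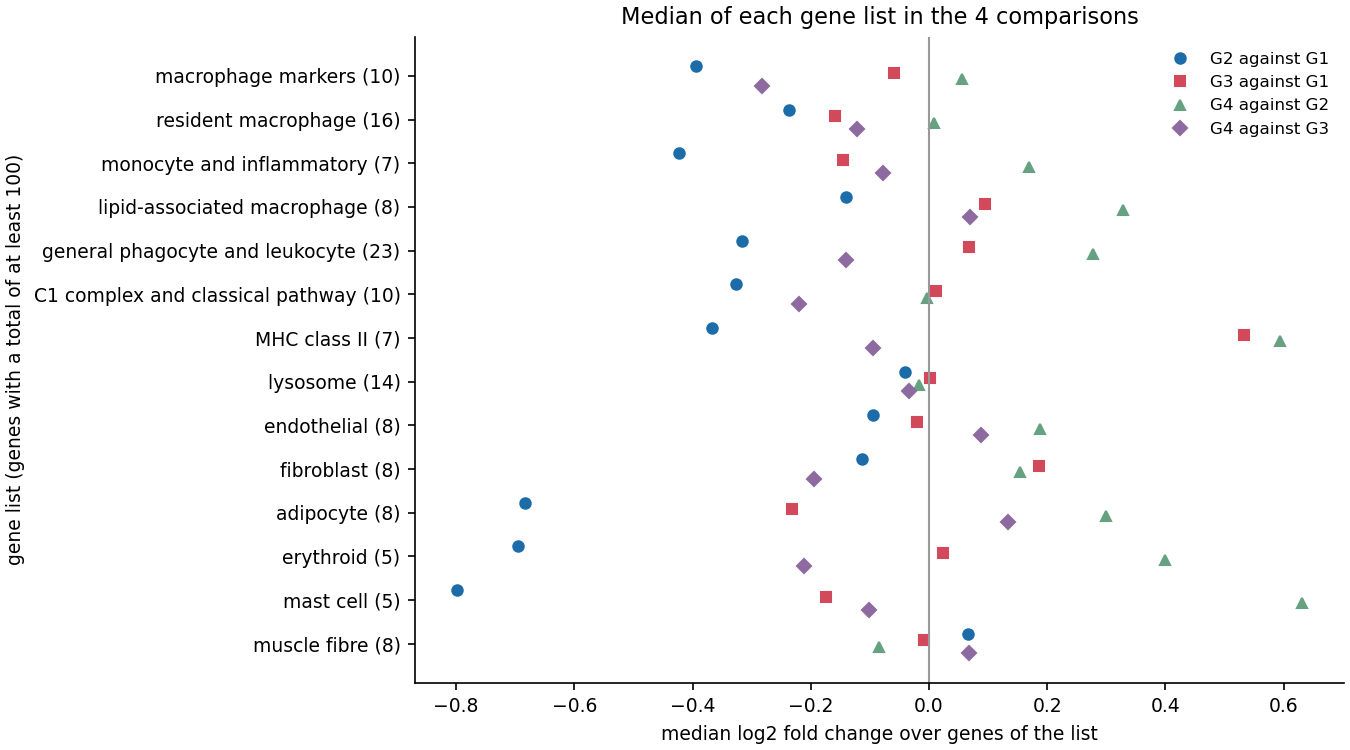
Median log2 fold change (x axis) of 14 gene lists in the 4 comparisons, with 1 symbol per comparison and the number of genes with a total of at least 100 in brackets. The macrophage markers have -0.39 in G2 versus G1. The monocyte and inflammatory (-0.42), adipocyte, erythroid and mast cell lists lie further below 0 in the same comparison.

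Partners of the markers were described from the same lists. In the list of the CSF1 receptor axis (7 of 7 with a total of at least 100), the transcription factor Cebpb, which is not limited to macrophages, rose in G4 versus G2 by 1.33 on the log2 scale with an implied standard error of 0.27 (adjusted p = 3.38e-04) in the authors' deposited table, and it was the 1 call of the list. Its median was -0.14, 0.04, 0.15 and 0.06 in G2 versus G1, G3 versus G1, G4 versus G2 and G4 versus G3. Cebpa, a factor of myeloid cells and adipocytes, had -0.57 in G2 versus G1 in the authors' deposited table (p = 0.0186 before adjustment). The 10 genes of the C1 complex and classical pathway, which hold none of the 3 C1q chains and are made largely by other cells, had medians of -0.33, 0.01, -0.00 and -0.22, with 10 of 10 below 0 in G2 versus G1 and no call. The protease gene C1ra had 0.36 with an implied standard error of 0.13 in G3 versus G1 and -0.29 with 0.13 in G4 versus G3 in the authors' deposited tables. Cfd, a factor of the alternative pathway that adipocytes secrete, had -1.29 with 0.47 in G3 versus G1 in the authors' deposited table (adjusted p = 0.798). In the receptor complex of CD14 and TLR4, 9 genes had medians of -0.08, 0.07, 0.03 and -0.11 with no call, and Tlr2 had 0.82 with 0.30 in G3 versus G1 and Tirap -0.43 with 0.17 in G4 versus G2 in the authors' deposited tables. For the scavenging of haemoglobin, the task of Cd163, 7 genes had medians of -0.12, -0.13, 0.11 and 0.09. Within that list haptoglobin, Hp, had -1.15 with 0.31 in G2 versus G1 (p = 1.96e-04 before adjustment, adjusted p = 1) and the iron exporter Slc40a1 -0.69 with 0.26 in the authors' deposited table. In the lysosome list, whose 14 genes every cell uses, the medians were -0.04, 0.00, -0.02 and -0.03 with no call.

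Markers of other cell types were also lower in value in G2 versus G1, with no gene called there. The median log2 there was -0.68 for 8 adipocyte genes with 8 of 8 below 0, -0.70 for 5 erythroid genes with 5 of 5, -0.80 for 5 mast cell genes with 5 of 5, -0.21 for 4 Schwann cell genes with 4 of 4, -0.11 for 8 fibroblast genes with 7 of 8 and -0.10 for 8 endothelial genes with 8 of 8. Muscle fibre genes had 0.07 and smooth muscle genes 0.10. Summed levels in G1, G2, G3 and G4 were 179, 112, 170 and 148 CPM for the erythroid genes, 10, 6.42, 9.61 and 8.47 CPM for the mast cell genes and 474, 440, 479 and 512 CPM for the endothelial genes. Their part in the lower macrophage values was not tested. In G4 versus G3 the erythroid median was -0.21, the fibroblast median -0.19, the Schwann cell median -0.08 and the mast cell median -0.10, whereas the endothelial, adipocyte and smooth muscle medians were 0.09, 0.13 and 0.29. Over the 4 comparisons 2 genes of these lists were called, Lum with 0.58 in G3 versus G1 (adjusted p = 0.0128) and Fabp4 with 0.37 in G4 versus G2 (adjusted p = 0.0254), both in the authors' deposited tables.

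Markers of lymphocytes and neutrophils were near the limit of what was read. All 8 T cell genes and all 7 neutrophil genes found had totals under 100, with sums of 1.42 and 0.455 CPM, and neutrophils are the other main source of Lyz2. Of 5 B cell genes 1 reached 100, the immunoglobulin gene Ighm with -0.79 in G2 versus G1 in the authors' deposited table (p = 0.0126 before adjustment). Of 6 dendritic cell genes 2 reached 100, Zbtb46 with a total of 1794 and Siglech with 108. The medians of these 2 genes were 0.25, 0.35, -0.16 and -0.26, too few genes to stand for the cell type. Tissue identity matched the label, with the slow myosin gene Myh7 at 10039.5 CPM. Nox1 had a total of 25.2 reads over the 12 libraries, a mean of 0.0844 CPM, and could not check the knockout in whole muscle, and Cdh5 was at 173 CPM with log2 values of -0.09, 0.11, 0.23 and 0.04 in the authors' deposited tables.

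Genes outside the marker set with the most similar pattern were ranked by Euclidean distance over the 4 log2 values from the marker median, among 10661 genes with a total of at least 1000. The nearest were Emilin2 (distance 0.0776), Mfap3l (0.0940), Btnl9 (0.0951), Farp1 (0.0972) and Adck2 (0.123). The markers themselves were not tightly grouped: C1qb lay nearest at 0.209, with 21 other genes nearer, followed by Lyz2 at 0.244, whereas Cd68 and Cd14 lay at 0.584 and 0.601 with 6482 and 7016 genes nearer. Only 4 groups enter this measure.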

How the data were processed

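RNA of soleus from 12 mice was sequenced, and the 4 tables analysed hold the authors' own comparisons, with a value per gene and comparison and none per library. The build was mm10 (GRCm38) and the tools named were RSEM 1.2.15, Bowtie2 2.1.0 and edgeR, per the submitters' processing notes, which give no roles. The sources used here do not say which of them made the p-values. Totals are deposited as a signal, reads divided by library size factors and summed over libraries, a mean of 24.9 (in 1e6 reads) per library. The p-value, adjusted p-value (blank where the authors gave none), signed fold and log2 columns are the authors' deposited values. A blank adjusted p in G4 versus G2 or G4 versus G3 was counted as no call. Library size factors, taken from genes with a single read, were between 0.787 and 1.25.

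The table for G2 versus G1 lists 15652 genes, none with a log2 above 0. Missing values were filled by adding the log2 of G3 versus G1 to that of G4 versus G3 and taking off that of G4 versus G2, which gave the listed log2 of the markers with a largest difference of 1.05e-15. Standard errors were implied by each log2 and p-value under a normal distribution. They come from the authors' model and may be drawn towards a trend over genes. A dispersion per gene was solved from 3 of these errors (largest misfit in the markers 0.00503%), which gave group levels with intervals and the pairs G4 versus G1 and G3 versus G2. Averages, the interaction and these pairs were adjusted by Benjamini-Hochberg over genes with a total of at least 100 (8.33 reads per library). They were computed with Python 3.11.15 and SciPy 1.17.1. Simulated data were used to check the filled-in log2 values, the interaction, the level of G4 and the dispersion. The averages and these pairs were not checked in that way. RPKM uses the exon length of GENCODE M21. Replicates are separate mice by their label numbers. All marker genes are named. From the other lists come genes that were called and the 2 with the smallest p of a list, and the 5 nearest patterns. Members and lists were chosen with earlier results of these data known, and the averages and the 2 added pairs were chosen after the data were seen. The planned test of counts needs values per library and was not run.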

Additional observations from a re-analysis of the deposited data

How the results depend on the processing

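No marker was called in any of 46 recounts, each with 1 other setting for 1 of the 4 comparisons, the interaction or the 2 averages. The settings changed the genes adjusted over (all, or totals of at least 100 or 1000) or asked for a fold of at least 1.5. Others used a t distribution with 8 degrees of freedom, centring on the median gene, or removal of trends with total, transcript length and GC content. Adjusted p ran from 0.7275 to 1. With a total of at least 1000, Adgre1, Cd14 and Cd68 drop out. Of 369 values of single markers, 2 changed sign, both for the interaction after the trend was removed: 0.011 for Adgre1 and -0.0077 for Lyz2. Of 252 list medians, 2 moved by more than 1 implied SD between mice: the B cell list, with more genes at a total of at least 10, had -0.31 in G2 versus G1 and 0.47 in G3 versus G1, in place of -0.79 and -0.54 from 1 gene. Of the same 252 medians, 10 had the other sign, in 7 lists. In G3 versus G1 the monocyte and inflammatory list went from -0.15 to 0.16 (total of at least 10) and 0.12 (at least 1000, Nos2 alone). At 1000 the dendritic cell list, then Zbtb46 alone, went from 0.35 to -0.11 in G3 versus G1. At the same minimum the CSF1 receptor axis went from 0.04 to -0.03 and the erythroid list from 0.02 to -0.05. Also at 1000, the monocyte and inflammatory list (Nos2 alone) went from -0.42 to 0.02 in G2 versus G1. At that minimum in G4 versus G2, the classical pathway list went from -0.00 to 0.02 and the markers from 0.06 to -0.12. With the C1q chains counted once, an alternative chosen after seeing the data, the marker medians were -0.32, -0.06, -0.11 and -0.33 in G2 versus G1, G3 versus G1, G4 versus G2 and G4 versus G3, so that of G4 versus G2 changed sign. No paired analysis was possible because these are values per comparison and not per mouse, and for the same reason no mouse could be left out and levels weighted by library were not run. Depth is lowest for Cd14, Adgre1 and Cd68, with totals of 364, 511 and 772 reads over the 12 libraries.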

Other observations

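Genes of MHC class II, through which macrophages, dendritic cells and B cells present antigen, had another pattern than the macrophage markers. All 7 were above 0 in G3 versus G1 with a median log2 of 0.53, and all 7 in G4 versus G2 with 0.59, while 6 of 7 were below 0 in G2 versus G1 (-0.37) and 5 of 7 in G4 versus G3 (-0.09). H2-Aa had 0.60 with an implied standard error of 0.23 in G3 versus G1 and 0.59 with 0.23 in G4 versus G2 in the authors' deposited tables (adjusted p = 0.885 and 0.254), and Cd74, the invariant chain, had 0.65 with 0.24 in G4 versus G2 in the authors' deposited table (adjusted p = 0.191). None of the 7 was called in any of the 4 comparisons. Ciita had 1.21 in G4 versus G2 in the authors' deposited table (p = 0.0247 before adjustment). It had no adjusted p there and could not be called. At an unadjusted p under 0.05, 2 of 7 were counted in G3 versus G1 and 4 of 7 in G4 versus G2, beside 5.63% and 9.06% of all genes. The macrophage markers had medians of -0.06 and 0.06 in the same 2 comparisons, and the difference between the lists was not tested.

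Mast cell genes were the list with the lowest median in G2 versus G1 among those with 5 or more genes read. Cpa3, a protease of mast cell granules, had -1.38 with an implied standard error of 0.52 and the chymase Cma1 -0.94 with 0.46 in the authors' deposited table, with p-values before adjustment of 0.00830 and 0.0432 and adjusted p of 1. In G4 versus G2, which shares G2, they had 0.63 and 0.85 in the authors' deposited table.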
